A study of Mus musculus with 8 samples.

Results

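Quadriceps muscle of dy2J mice was compared with quadriceps muscle of mdx mice across all genes measured by RNA sequencing. The comparison uses 5 of the 8 libraries of the study, 2 from dy2J and 3 from mdx, taken by their genotype labels alone. The dy2J mice carried the Lama2 dy-2J allele on the strain C57BL/6J, and the mdx mice carried the Dmd mdx allele on the strain C57BL/10ScSn. Wild-type mice (WT) of the strain C57BL/10ScSnJ gave the other 3 libraries, which are used here for reference levels and for the estimate of the spread between libraries. All mice were male and 8 weeks old by the labels. Each library was a pool: 11 dy2J mice went into 2 pools of 5 to 6, 15 mdx mice into 3 pools of 4 to 6, and 14 WT mice into 3 pools of 4 to 6. Each n below counts pools, so a p-value reflects how pools vary, not how mice vary. Strain and mutation change together between dy2J and mdx and cannot be told apart in any result below, and the WT mice share the strain of mdx but not that of dy2J.

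Both mutations break the same chain of proteins at different points. Dystrophin, the product of Dmd, ties the actin cytoskeleton of the muscle fibre to the dystroglycan complex in the fibre membrane. Laminin-211, which contains the laminin alpha-2 chain made from Lama2, binds dystroglycan and integrins from the basement membrane outside the fibre. Muscle without dystrophin is known for rounds of fibre death, macrophage entry and regeneration from satellite cells, the stem cells of muscle. The dy-2J allele is a splice mutation that leaves a laminin alpha-2 chain truncated at its N-terminal end, and laminin-alpha-2-deficient muscle is known for impaired regeneration, fibrosis and a neuropathy of peripheral nerve. Muscle fibres also come in types: slow fibres carry the myosin heavy chain Myh7 and burn fat by oxidation, and fast fibres carry Myh2, Myh1 or Myh4.

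Levels are given as FPKM, which counts sequenced fragments relative to transcript length and library size, so different genes may be set side by side. Read numbers are unknown, and summed FPKM was 556218 in dy2J 1 and 785513 in dy2J 2. The gap rests on the mitochondrial gene mt-Atp8, listed at 0 in dy2J 1 and at 197763 FPKM in dy2J 2. Without the genes that have such a 0 in a dy2J or mdx library, the sums were 554309 and 585390 in dy2J and 487952 to 623711 in mdx. Pearson correlations across tested genes were 0.9778 to 0.9887 between libraries of the same genotype and 0.9546 to 0.9703 between a dy2J and an mdx library. Mitochondrially encoded genes took 26.1% and 27.8% of the sums without these genes in dy2J and 18% to 20% in mdx, with 32.1% to 34.5% in WT. Over all genes the shares were 26.0% and 45.9% in dy2J and 35.7%, 33.4% and 25.9% in mdx. The groups then overlapped, so the gap depended on leaving out genes such as mt-Atp8 and mt-Co1. Genes of muscle identity were abundant in all 5 libraries, among them Ckm, the creatine kinase of muscle, at 5553 and 5995 FPKM in dy2J and 8037, 5236 and 7502 in mdx. The dy2J libraries stood apart from the others in genes of the sex chromosomes, which were chosen here after their values were seen. Ddx3y, on the Y chromosome, was at 7.23 and 9.60 FPKM in dy2J against 27.8, 24.1 and 24.7 in mdx and 24.7 ± 0.200 (SD, n = 3) in WT. Kdm5d, Eif2s3y and Uty, also on the Y chromosome, were lower in dy2J by 1.32, 1.58 and 1.19 on the log2 scale, although the labels give males in every group. Xist, the RNA that coats the inactive X chromosome of females, was at 0.0834 and 0.101 FPKM in dy2J and listed at 0 in the mdx libraries. Erdr1, listed on the Y chromosome, went the other way, at 27.6 and 28.9 FPKM in dy2J and 2.91, 2.13 and 0.757 in mdx. Both dy2J libraries showed these levels, so the comparison cannot be made without them, and what sets the levels was not tested.

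Each mutant was checked first for its own mutated gene. Dmd (ENSMUSG00000045103) lies on chromosome X, at 82948870 to 85206141 (GRCm38). Dmd was at 22.8 and 28.1 FPKM in the dy2J pools and at 3.98, 4.26 and 5.50 in the mdx pools, with 29.8 ± 2.01 (SD, n = 3) in WT. The groups did not overlap, and Dmd was 2.25 ± 0.14 (SE) higher in dy2J on the log2 scale (limma, Benjamini-Hochberg adjusted p = 8.08e-05). Lama2 (ENSMUSG00000019899, chromosome 10, 26980036 to 27619758) was at 5.31 and 5.07 FPKM in dy2J and at 9.32, 10.9 and 12.7 in mdx, with 9.40 ± 0.0505 in WT. It was -0.94 ± 0.13 in dy2J against mdx (limma adjusted p = 0.0038). So each mutated gene had the lower transcript level in its own mutant, and both calls held in all 19 alternatives. Nnt, a mitochondrial enzyme gene that is partly deleted in C57BL/6J mice, was at 13.1 and 14.0 FPKM in dy2J and at 17.3, 16.4 and 20.1 in mdx. The difference did not pass (-0.38 ± 0.12, limma adjusted p = 0.0802), and a value summed over the whole gene does not check the deleted exons.

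Of 12581 tested genes, 953 (7.57%) passed the threshold of 0.05 on the adjusted p. Of these, 394 (3.13% of tested genes) were higher in dy2J and 559 (4.44%) were lower. The dy2J and mdx libraries of all 953 did not overlap, which was also true of 5310 (42.2%) of all tested genes. At least 2-fold differences on the log2 scale, an absolute value of 1 or more, were found for 134 of the higher and 176 of the lower genes. The median difference of all tested genes was -0.08, with 4678 above 0 and 7903 below. The balance of directions depended on the scale. As deposited, 41.3% of the calls were higher in dy2J, but after quantile normalization 58.7% were (722 higher and 509 lower) and after rescaling by the median ratio 58.9% (618 and 432). The number of calls depended on the dy2J libraries, of which there were only 2: it was 140 without dy2J 1 and 221 without dy2J 2. A total of 137 genes, 90 higher and 47 lower, were called in every alternative in which they were tested, and no called gene changed sign in any of them.

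**Figure D1:**
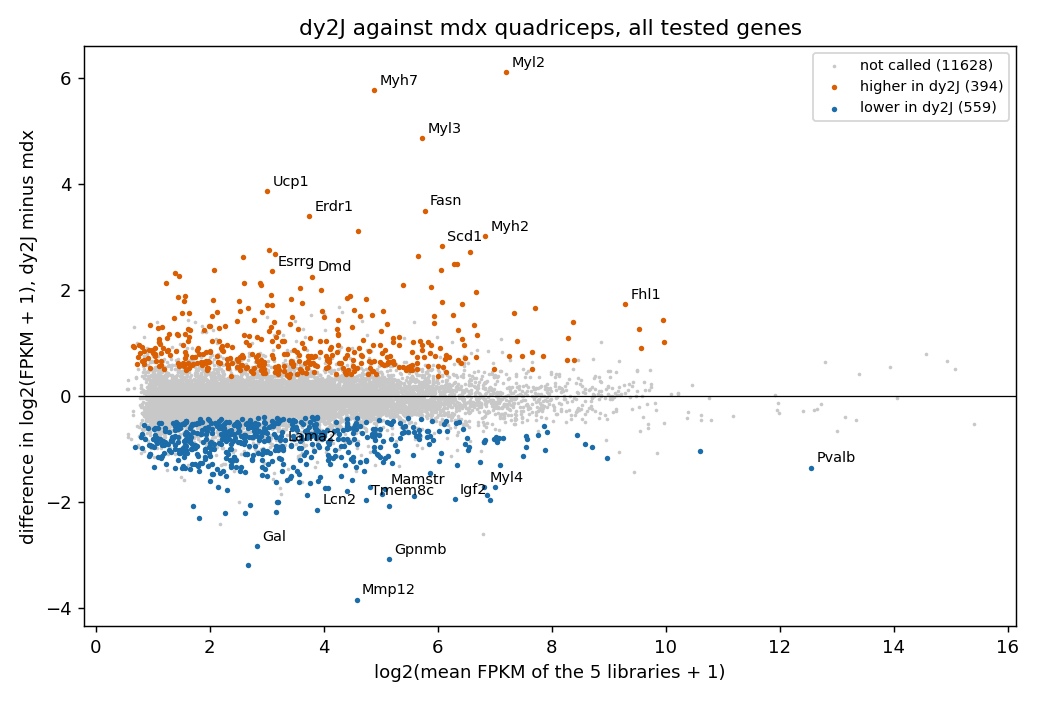
Difference between dy2J and mdx quadriceps for 12581 tested genes, as log2(FPKM + 1) of dy2J minus mdx on the y axis, against log2(mean FPKM of the 5 libraries + 1) on the x axis. The 394 genes called higher in dy2J are orange and the 559 called lower are blue, and Myl2 (6.10), Myh7 (5.76) and Myl3 (4.86) lie at the top and Mmp12 (-3.84) at the bottom.

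Genes of slow muscle fibres were higher in dy2J. Of 19 tested members of this list, 14 (73.7%) were called higher and 0 lower, against 3.13% higher among all tested genes, and the median difference was 1.57 against -0.08. The summed FPKM of the list was 2917 and 3417 in dy2J, 1281, 1203 and 1413 in mdx, and 872 to 958 in WT. The count was 8 without dy2J 1, 9 without dy2J 2 and 11 to 14 in the other alternatives.

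Among the myosin genes, Myl2, the slow regulatory light chain, was at 285 and 430.0 FPKM in dy2J and at 5.87, 3.75 and 3.12 in mdx, with 9.67 ± 0.698 in WT. Myh7, the slow myosin heavy chain, was at 54.7 and 87.2 FPKM in dy2J and at 0.260, 0.170 and 0.481 in mdx, with 0.612 ± 0.433 in WT. Myl3, the slow essential light chain, was at 94.1 and 155 FPKM in dy2J and at 4.51, 1.52 and 4.30 in mdx, with 10.5 ± 2.96 in WT. All 3 were far apart between the groups, with dy2J 2 above dy2J 1 in each. Their differences were 6.10 ± 0.23, 5.76 ± 0.25 and 4.86 ± 0.37 (SE, limma adjusted p = 9.06e-06, 1.81e-05 and 0.000226). In these genes the mdx mean lay below the WT mean. Mhrt, a non-coding RNA transcribed antisense to Myh7, was at 3.03 and 5.18 FPKM in dy2J and listed at 0 in mdx. Whether counting used strand is not stated, so reads of Myh7 and of Mhrt cannot be told apart.

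Thin-filament genes of slow fibres followed the same direction with smaller differences. Tnnc1, the slow and cardiac troponin C, was at 122 and 192 FPKM in dy2J and at 17.3, 37.0 and 29.3 in mdx (2.48 ± 0.43, limma adjusted p = 0.013). Tnnt1, the slow troponin T, was at 118 and 136 FPKM against 17.2, 32.1 and 24 (2.38 ± 0.26, limma adjusted p = 0.00152). Tpm3, the slow tropomyosin, was at 90.4 and 124 FPKM against 20.9, 36.2 and 20.2 (2.05 ± 0.25, limma adjusted p = 0.00279). For Tnnc1 and Tnnt1 the mdx pools lay between dy2J and WT, where the means were 2.50 and 2.85 FPKM. Tnni1, the slow troponin I, was also higher than in WT (1.49 ± 0.486) in both mutants, but its 93.8 and 136 FPKM in dy2J and 54.1, 79.4 and 72.8 in mdx did not pass the threshold (0.73 ± 0.22, limma adjusted p = 0.0801). Mybpc1, the slow myosin-binding protein C, was at 569 ± 4.47 FPKM in dy2J (SD, n = 2) and 566 ± 75.6 in mdx (n = 3), and was not called either. The call of Tnnc1 was lost without dy2J 1 or dy2J 2 or with no filter on low values (limma adjusted p up to 0.113).

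Calcium handling genes were mixed, with 2 of 22 higher in dy2J, 2 lower and a median of -0.12. The share called was 18.2%, against 7.57% of all tested genes. The lower count was 5 without mdx 2. Atp2a2, the calcium pump SERCA2 of slow fibres, was at 109 and 123 FPKM in dy2J and at 28.4, 38.1 and 33.7 in mdx, with 11.6 ± 1.04 in WT (1.77 ± 0.14, limma adjusted p = 0.000309). Sln encodes sarcolipin, a small inhibitor of these pumps, and was at 244 and 286 FPKM against 86.0, 63.7 and 125, with 2.61 ± 1.02 in WT (1.57 ± 0.30, limma adjusted p = 0.0185). Sln was thus high in both mutants relative to WT and higher in dy2J, although its call was lost when either dy2J library was left out (limma adjusted p up to 0.137). Casq2, the slow and cardiac calsequestrin, was at 58.2 and 41.4 FPKM in dy2J and at 39.7, 51.1 and 59.6 in mdx, groups that overlap. Orai1, the store-operated calcium channel, was lower in dy2J, at 19.2 and 19.5 FPKM against 49.9, 36.4 and 45.8.

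Among fast fibre genes, Myh2, the heavy chain of fast oxidative fibres, was the exception. It was at 282 and 199 FPKM in dy2J and at 26.6, 30.6 and 28.2 in mdx, with 87.6 ± 7.02 in WT, a mean ratio of 8.44 between dy2J and mdx (3.01 ± 0.16, limma adjusted p = 2.44e-05). Myh1, a faster heavy chain, was at 669 and 580.2 FPKM against 429, 426 and 496 and was not called. Myh4, the fastest, could not be tested, because it was listed at 0 in mdx 1 and in the WT pools. Pvalb, the calcium buffer parvalbumin of fast glycolytic fibres, was lower in dy2J, at 2747 and 3321 FPKM against 8592, 5337 and 9908 (-1.35 ± 0.28, limma adjusted p = 0.0248). Casq1, the fast calsequestrin, was lower at 924 and 949.8 FPKM against 2260.4, 1363 and 2271 (-1.03 ± 0.22, limma adjusted p = 0.0285). For both, mdx 2 was the mdx pool nearest to dy2J. Of the 19 tested fast fibre genes 1 was higher and 2 were lower (15.8% called, against 7.57% of all tested genes). The median of the list was -0.38. The lower count was 14 without mdx 2 and 6 after quantile normalization. It was 0 with no filter on low values, with only the dy2J and mdx libraries, with the replicate block and without mdx 3. The calls of Pvalb and Casq1 were lost in each alternative with a count of 0, and also without dy2J 1 or dy2J 2. That of Casq1 was lost without mdx 1 or WT 2 as well. Mb, the oxygen store myoglobin, was higher in dy2J at 1822 and 1349 FPKM against 629, 494 and 632 (1.43 ± 0.19, limma adjusted p = 0.00378), a call lost without dy2J 1 (limma adjusted p = 0.0578).

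**Figure D2:**
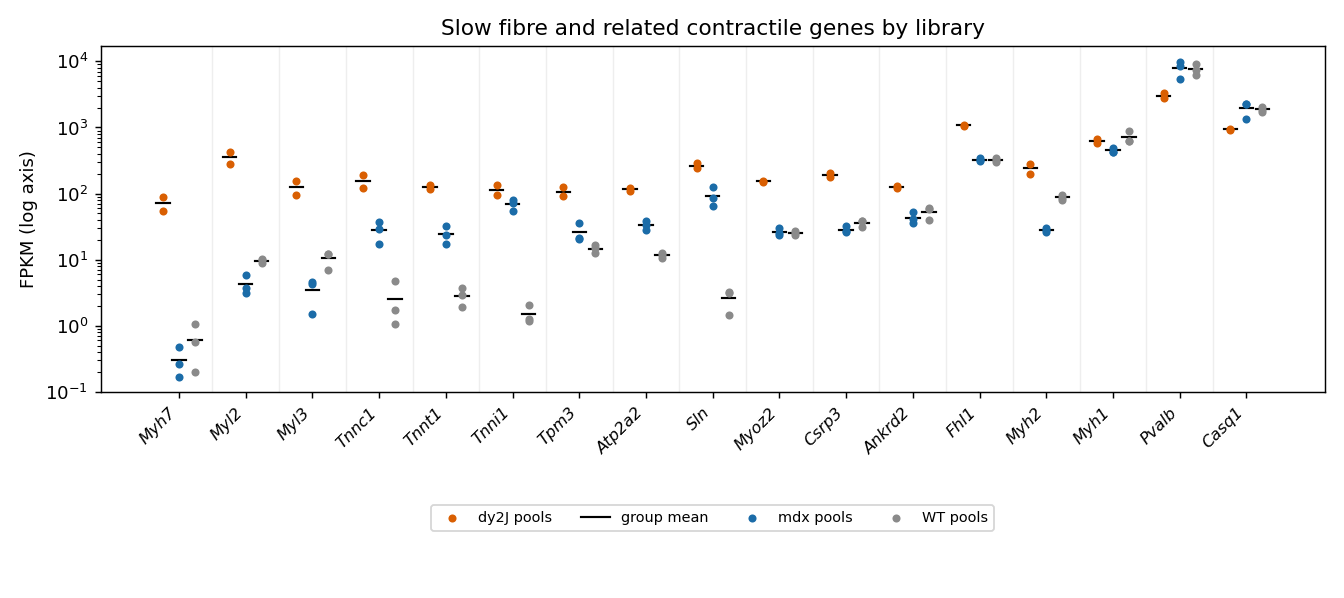
FPKM of slow fibre and related contractile genes in each library on a log axis, with dy2J pools in orange, mdx pools in blue, WT pools in grey and a bar at each group mean. Myl2 (285 and 430.0 FPKM), Myh7 (54.7 and 87.2) and Myl3 (94.1 and 155) in dy2J lie far above the mdx pools, while the fast fibre genes Pvalb and Casq1 lie below them.

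Genes of the Z-disc and of the response to stretch overlapped with the slow fibre list and showed 7 of 28 tested members higher (25.0%) and 0 lower, with a median of 0.06. Csrp3, the muscle LIM protein that anchors at the Z-disc, was at 181 and 204 FPKM in dy2J and at 26.7, 31.8 and 27.1 in mdx (2.71 ± 0.13, limma adjusted p = 1.88e-05). Myoz2, the slow fibre member of the calsarcins, which bind calcineurin at the Z-disc, was at 154 and 152 FPKM against 25.7, 23.5 and 30.0 (2.50 ± 0.12, limma adjusted p = 1.88e-05). Fhl1, a LIM protein of sarcomere assembly, was at 1051 and 1101 FPKM against 319.8, 308 and 346 (1.73 ± 0.12, limma adjusted p = 0.000107). In these genes the dy2J pools lay close together and the mdx pools lay near WT, where Csrp3, Myoz2 and Fhl1 averaged 36.2, 25.1 and 322 FPKM. Ankrd2, the muscle ankyrin repeat protein of slow fibres, was at 120.4 and 129 FPKM against 41.0, 52.2 and 35.8. Xirp1, an actin-binding protein found at sites of fibre damage, was at 61.9 and 89.8 FPKM against 23.5, 16.6 and 12.0, a call lost when either dy2J library was left out (limma adjusted p up to 0.12). Nrap and Xirp2, other proteins of actin anchorage in muscle, were the remaining called members, with differences of 1.04 and 0.75, both lost without dy2J 2.

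The 250 bases before the transcription start are shown for 3 of the slow fibre genes that were higher in dy2J together and for 2 regenerating fibre genes that were lower together, which are described further on. The sequences are from RefSeq (GRCm38.p6), on the strand of the gene, 5′ to 3′, for genes whose RefSeq start lay within 50 bases of the start in the deposited table. Capitals mark the E-box CANNTG, bound by the MyoD family, and a pattern named the MEF2 box here, after the MEF2 factors. That pattern is CTA and TAG with any 4 bases between them, and whether MEF2 factors bind its matches was not tested. The windows are chr14:54994627-54994876 for Myh7, chr7:48848052-48848301 for Csrp3 and chr3:123034988-123035237 for Myoz2, all on the minus strand. They are chr1:135836084-135836333 for Tnnt2 and chr11:67276874-67277123 for Myh8, both on the plus strand.
Myh7: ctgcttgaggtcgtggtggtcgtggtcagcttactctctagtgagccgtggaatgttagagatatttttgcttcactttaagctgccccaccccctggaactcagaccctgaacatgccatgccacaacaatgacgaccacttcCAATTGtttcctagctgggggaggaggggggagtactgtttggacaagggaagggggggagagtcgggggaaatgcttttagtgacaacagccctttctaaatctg
Csrp3: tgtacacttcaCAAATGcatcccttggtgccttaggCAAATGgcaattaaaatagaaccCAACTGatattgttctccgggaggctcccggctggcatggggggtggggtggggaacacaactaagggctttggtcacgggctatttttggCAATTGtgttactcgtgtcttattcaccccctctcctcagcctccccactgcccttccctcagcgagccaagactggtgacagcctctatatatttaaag
Myoz2: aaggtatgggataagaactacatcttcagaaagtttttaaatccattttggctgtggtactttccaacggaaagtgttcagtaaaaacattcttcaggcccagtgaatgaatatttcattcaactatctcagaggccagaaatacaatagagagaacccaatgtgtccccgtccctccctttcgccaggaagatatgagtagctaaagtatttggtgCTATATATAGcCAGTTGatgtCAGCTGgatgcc
Tnnt2: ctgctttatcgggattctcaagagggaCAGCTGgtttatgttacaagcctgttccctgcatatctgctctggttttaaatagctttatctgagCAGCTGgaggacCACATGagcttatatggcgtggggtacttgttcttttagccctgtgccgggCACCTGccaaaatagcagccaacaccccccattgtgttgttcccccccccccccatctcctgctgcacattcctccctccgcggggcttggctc
Myh8: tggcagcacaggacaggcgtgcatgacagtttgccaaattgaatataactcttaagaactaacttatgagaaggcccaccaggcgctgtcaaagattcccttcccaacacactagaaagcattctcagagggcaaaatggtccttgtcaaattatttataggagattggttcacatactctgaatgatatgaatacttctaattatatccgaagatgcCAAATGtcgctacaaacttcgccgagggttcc

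The Csrp3 and Tnnt2 windows each hold 4 E-boxes, the Myoz2 window holds 2 and the Myh7 and Myh8 windows hold 1 each. The Myoz2 window also holds 1 MEF2 box, which starts 33 bases before the transcription start and does not overlap an E-box. An E-box on either strand reads CANNTG, so the search covers both strands, and likewise for the MEF2 box. Of the 14 slow fibre genes called higher 9 had a window, and 9 of these hold an E-box and 1 a MEF2 box. Of the 5 regenerating fibre genes called lower 4 had a window, and 3 hold an E-box and 0 a MEF2 box. Among 6629 tested genes with a window, 57.6% hold an E-box and 2.87% a MEF2 box. Both motifs are short, and a match describes the letters of the window only.

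Heat shock and chaperone genes were more often higher in dy2J, with 8 of 30 called higher and 1 lower (30.0% called) and a median of 0.35. Cryab, the small heat shock protein alpha-B crystallin that protects desmin and titin, was at 969.7 and 1321 FPKM in dy2J and at 493, 451 and 478 in mdx, with 615 ± 59.8 in WT (1.25 ± 0.16, limma adjusted p = 0.00312). Hspb7, a small heat shock protein of heart and muscle, was at 316 and 387 FPKM against 99.5, 119 and 114, with 103 ± 22.2 in WT (1.65 ± 0.19, limma adjusted p = 0.00206). Both held in all alternatives, and in both genes dy2J was above WT and mdx. The inducible Hsp70 genes Hspa1a and Hspa1b, near-identical neighbours whose reads may be shared, were higher by 2.38 and 2.63 from low levels. Hspa1a was at 6.01 and 8.46 FPKM in dy2J and at 0.561, 0.846 and 0.324 in mdx, and its WT level of 3.83 ± 3.19 varied by nearly its own mean. Their calls were lost with no filter on low values or without mdx 3, and that of Hspa1b also without mdx 1, dy2J 1 or dy2J 2 (limma adjusted p up to 0.196). Hspa2, a testis-rich Hsp70, was lower in dy2J by 0.79 on the log2 scale, at 3.63 and 2.83 FPKM against 7.37, 5.4 and 6.17, a call lost when either dy2J library was left out. The count of higher members was 3 without dy2J 1, 4 without dy2J 2 and 5 to 14 in the other alternatives.

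Genes of fat storage and fatty acid synthesis were higher in dy2J. Of 25 tested adipocyte list members 12 (48.0%) were called higher and 0 lower, with a median of 1.09. The summed FPKM of the list was 3410 to 4036 in dy2J, 1830 to 2075 in mdx and 1899 to 2710 in WT. Without dy2J 1 the count was 3, without dy2J 2 it was 7, and in the other alternatives it was 9 to 16.

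Several enzymes of fatty acid synthesis were among the genes called higher. Fasn, fatty acid synthase, was at 138 and 101 FPKM in dy2J and at 9.60, 10.3 and 8.91 in mdx, with 15.4 ± 8.58 in WT (3.49 ± 0.35, limma adjusted p = 0.00101). Scd1, the stearoyl-CoA desaturase, was at 141 and 134 FPKM against 17.7, 15.6 and 23.3, with 58.5 ± 25.1 in WT (2.82 ± 0.32, limma adjusted p = 0.00206). Acaca, the acetyl-CoA carboxylase that supplies malonyl-CoA, was at 18.2 and 17.7 FPKM against 3.62, 5.27 and 4.19 (1.83 ± 0.25, limma adjusted p = 0.00441). Every dy2J pool was above every mdx and WT pool for these 3 genes, and the WT pools were spread more widely than the mdx pools. Elovl6, which lengthens palmitate, was at 4.17 and 3.98 FPKM against 0.512, 0.628 and 0.296. Acly, which makes cytosolic acetyl-CoA, was at 23.9 and 26.4 FPKM against 7.15, 10.4 and 7.81. The calls of Fasn, Scd1 and Acly held in all alternatives, and that of Acaca was lost without dy2J 1. Elovl6 was called in every alternative in which it was tested, which leaves out the filter of a mean FPKM of at least 5. Dgat2 and Agpat2, enzymes of triglyceride assembly, were higher by 1.18 and 1.61, Agpat2 not without dy2J 1 and Dgat2 not without either of the dy2J libraries.

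Markers of fat cells themselves were less uniform. Ucp1, the uncoupling protein of brown fat, was at 27.7 and 7.40 FPKM in dy2J and at 0.0658, 0.0430 and 0.0942 in mdx, with 0.0375 ± 0.0245 in WT (3.86 ± 0.40, limma adjusted p = 0.00107). Cidea, a lipid droplet protein of brown fat, was at 14.9 and 5.38 FPKM in dy2J and at 1.94, 2.24 and 2.40 in mdx. In both genes dy2J 1 was well above dy2J 2, and without dy2J 1 the difference of Cidea was 1.0 in place of 1.66 and was not called (limma adjusted p = 0.0554). Retn, the adipocyte hormone resistin, was at 46.7 and 45.6 FPKM against 12.6, 12.8 and 11.4, and its call was lost without dy2J 1, dy2J 2 or mdx 3 (limma adjusted p up to 0.126). Adipoq, the hormone adiponectin that defines fat cells, was at 65.9 and 57.0 FPKM against 23.5, 34.9 and 27.4 and was not called (1.09 ± 0.36, limma adjusted p = 0.0965). Plin1, the lipid droplet coat protein perilipin 1, was at 15.9 and 11.1 FPKM against 4.25, 7.55 and 4.84 and was not called (1.16 ± 0.42, limma adjusted p = 0.124). Fabp4, Lpl and Cfd, other genes abundant in fat cells, were not called at differences of 0.47, 0.75 and 1.03. The groups did not overlap for Adipoq or Plin1, but the WT pools varied, with Adipoq at 27.9 ± 15.5 FPKM. In bulk tissue, more fat cells and more transcript per cell cannot be told apart, and the part of fat cells in the difference was not tested.

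Genes of fatty acid uptake and oxidation gave 10 of 35 higher (28.6%) and 0 lower, with a median of 0.45. Esrrg, the oestrogen-related receptor gamma that drives oxidative metabolism, was at 15.0 and 16.1 FPKM in dy2J and at 2.04, 2.08 and 2.66 in mdx, with 5.63 ± 0.738 in WT (2.35 ± 0.13, limma adjusted p = 4.46e-05). Ppara, the nuclear receptor for fatty acids, was at 5.08 and 4.28 FPKM against 1.24, 1.05 and 1.97, with 5.21 ± 0.763 in WT (1.25 ± 0.18, limma adjusted p = 0.00552). Ppargc1a, the coactivator PGC-1 alpha, was at 11.0 and 13.3 FPKM against 5.33, 7.26 and 7.25, with 15.5 ± 2.79 in WT (0.79 ± 0.17, limma adjusted p = 0.0301). Esrrg was above WT in dy2J, while Ppara and Ppargc1a were near WT in dy2J and below it in mdx. The call of Esrrg held in all alternatives, that of Ppara was lost without dy2J 1 and that of Ppargc1a without dy2J 1, dy2J 2 or WT 3 (limma adjusted p up to 0.069 and 0.218). Enzymes and carriers among the called members had small differences, from 0.50 for Cpt1b, the muscle carnitine palmitoyltransferase, to 0.82 for Fabp3, the fatty acid binding protein of muscle. The count of members was 1 without dy2J 1, 2 without dy2J 2, 16 without mdx 3 and 18 after quantile normalization, and 4 to 17 in the other alternatives.

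Nuclear genes of oxidative phosphorylation had 0 of 45 called by limma and a small median of 0.14, against -0.08 among all tested genes. Of the 45, however, 38 were above 0, against 4678 of all 12581 tested genes. In the TCA cycle, Idh2, the mitochondrial isocitrate dehydrogenase that makes NADPH, was at 124 and 125 FPKM in dy2J and at 51.1, 48.1 and 58.1 in mdx (1.24 ± 0.13, limma adjusted p = 0.00106). Pdk1 and Mdh1 were the other higher members of 20, and Pdp1, a phosphatase that activates pyruvate dehydrogenase, was lower (-0.63, limma adjusted p = 0.0455). Idh2 held in all alternatives, Pdk1 was lost without dy2J 1, and Mdh1 and Pdp1 were lost when any of several libraries was left out. Ldhb, the lactate dehydrogenase subunit of oxidative tissue, was higher at 158 and 136 FPKM against 45.3, 38.7 and 46.4, and with Ppp1r1a and Ugp2 made up the 3 of 31 glycolysis and glycogen genes called higher. The remaining glycolysis members were not called, and the median of the list was -0.26. Without mdx 2, however, 14 members were called lower, and 3 were after quantile normalization.

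**Figure D3:**
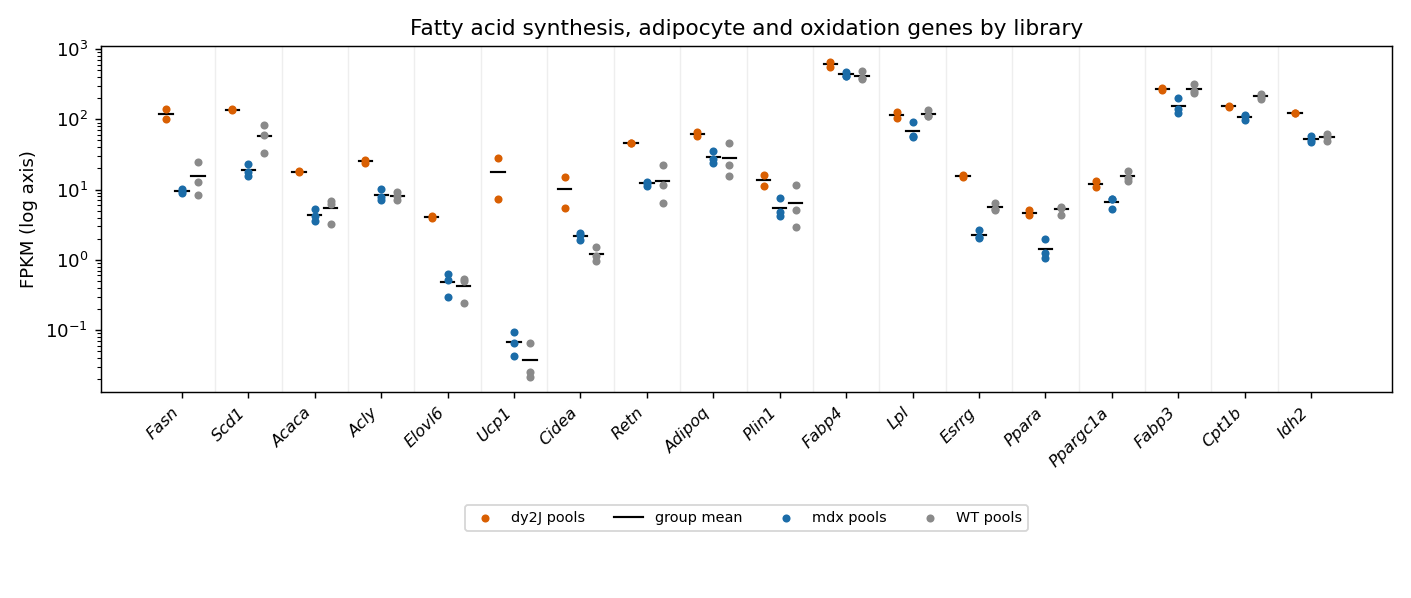
FPKM of fatty acid synthesis, adipocyte and oxidation genes in each library on a log axis, with dy2J pools in orange, mdx pools in blue, WT pools in grey and a bar at each group mean. Fasn (138 and 101 FPKM in dy2J, 8.91 to 10.3 in mdx) and Ucp1 (27.7 and 7.40 against at most 0.0942) are set apart, while Adipoq, Plin1, Fabp4 and Lpl differ less.

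Macrophage genes were lower in dy2J than in mdx. Of 44 tested members 17 (38.6%) were called lower and 0 higher, against 4.44% lower among all tested genes, and the median was -0.99, with 43 of 44 below 0. The summed FPKM of the list was 1017 and 835 in dy2J, 1556, 3472 and 1946 in mdx and 305 to 392 in WT, so both mutants were above WT. The pool mdx 2 was the highest, and without mdx 1, the lowest mdx pool, 31 members were called. The count was 1 without dy2J 1, 3 without dy2J 2, 6 with no filter on low values and 11 to 18 in the remaining alternatives.

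Gpnmb, a glycoprotein of phagocytic macrophages, was at 4.62 and 4.77 FPKM in dy2J and at 23.6, 89.7 and 48.4 in mdx, with 1.26 ± 0.297 in WT (-3.07 ± 0.42, limma adjusted p = 0.00468). Lgals3, which encodes galectin-3, was at 46.0 and 38.2 FPKM against 109.6, 249 and 137, with 9.17 ± 2.44 in WT (-1.87 ± 0.32, limma adjusted p = 0.012). Clec7a, the beta-glucan receptor dectin-1, was at 2.26 and 2.17 FPKM against 8.50, 16.9 and 11.3 (-1.99 ± 0.25, limma adjusted p = 0.00332). The dy2J pools agreed within narrow limits for each gene, whereas the mdx pools spread over a wide range. Clec7a held in all alternatives, Gpnmb was lost without dy2J 1 (limma adjusted p = 0.0522) and Lgals3 when either dy2J library was left out (limma adjusted p up to 0.102). Trem2, a lipid-sensing receptor of macrophages, was at 4.00 and 3.71 FPKM against 11.2, 26.2 and 15.5. Cd68, a lysosomal protein that marks macrophages, was at 26.1 and 25.5 FPKM against 46.2, 122 and 66.2. Both calls were lost when either dy2J library was left out, and that of Cd68 also without mdx 3 or WT 2. Broadly expressed macrophage genes differed less. Lyz2, lysozyme, was at 305 and 249 FPKM against 447, 935 and 576 (-1.17 ± 0.26, limma adjusted p = 0.0319), and C1qa, a chain of complement C1q, at 70.9 and 53.4 against 86.7, 137 and 104 (-0.79 ± 0.20, limma adjusted p = 0.049). The call of C1qa was lost in 16 of the 19 alternatives and that of Lyz2 in 9. In bulk muscle, fewer macrophages and less transcript per macrophage cannot be told apart.

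Some genes that macrophages use for digestion and recognition were lower as well. Of 29 lysosome and cathepsin genes 8 were lower (27.6%), of 29 innate immune receptor genes 10 (34.5%) and of 19 complement genes 8 (42.1%), with 0 higher in each, and medians of -0.61, -0.83 and -0.73. Each of these counts was 1 or 2 when either dy2J library was left out, and without mdx 1 there were 20 lysosome and 16 receptor genes lower. Of the complement genes 7 were above 0, and the summed FPKM of the list was 1388 and 1101 in dy2J and 1048, 1317 and 1061 in mdx, so the groups overlap. Atp6v0d2, a proton pump subunit known from osteoclasts and macrophages, was at 0.843 and 0.811 FPKM in dy2J and at 4.75, 12.5 and 6.74 in mdx (-2.21 ± 0.29, limma adjusted p = 0.00364). Ctss, cathepsin S, was at 52.9 and 46.6 FPKM against 109.7, 280.4 and 144. Fcgr4, a receptor for IgG, was at 2.05 and 1.69 FPKM against 4.61, 8.54 and 7.19, and C3ar1, the receptor for complement C3a, at 5.19 and 5.20 against 10.2, 30.7 and 17.9. The calls of Ctss, Fcgr4 and C3ar1 were lost when either dy2J library was left out, and that of C3ar1 also without mdx 3. Cd59a differed in its pattern: this inhibitor of the complement membrane attack complex was at 13.2 and 11.9 FPKM in dy2J against 30.0, 25.5 and 39.1 in mdx and 32.3 ± 1.43 in WT, so that dy2J stood apart from both, and its call held in all alternatives. Of the 8 tested MHC class II genes 0 were called by limma, with 8 below 0 and a median of -0.38, and 2 were called lower without mdx 1. Of 34 interferon response genes 1 was lower, the proteasome subunit Psmb8 (-0.61, limma adjusted p = 0.0455). The interferon count was 6 without mdx 1 and 0 without either dy2J library.

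Matrix proteases and their inhibitors included the gene with the largest lower value. Mmp12, the macrophage elastase, was at 1.51 and 1.35 FPKM in dy2J and at 18.2, 56.3 and 37.2 in mdx, with 0.350 ± 0.0914 in WT, a mean ratio of 26.0 between mdx and dy2J (-3.84 ± 0.36, limma adjusted p = 0.000671). Adam8, a protease of leukocytes, was at 2.04 and 1.88 FPKM against 6.94, 21.2 and 8.25. Serpina3n, a secreted serine protease inhibitor, was at 15.8 and 18.9 FPKM against 68.2, 66.0 and 65.1, with 5.47 ± 2.61 in WT (-1.88 ± 0.32, limma adjusted p = 0.0109). Serpina3n differed from Mmp12 and Adam8 in that the 3 mdx pools were nearly equal. In all, 6 of 27 members were lower (22.2%) and 0 higher, the others being Mmp3, Plau and Adamts5, and 2 were lower without dy2J 1 and 2 without dy2J 2. Mmp12 held in all alternatives, and Adam8 and Serpina3n were lost when either dy2J library was left out (limma adjusted p up to 0.137 and 0.0991). Timp1, Mmp2 and the other 19 members were not called. Lcn2, the iron-binding protein lipocalin-2 of neutrophils and injured tissue, was at 2.47 and 5.74 FPKM against 20.2, 20.8 and 19.7 (-2.14 ± 0.28, limma adjusted p = 0.00339) and was the 1 of 8 tested neutrophil genes that was called.

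Regenerating fibre genes split. Of 26 tested members 5 were lower in dy2J and 3 higher (30.8% called), and the median was -0.54. Without mdx 1, 10 were lower. The 3 higher members were Sln, Tnnc1 and Xirp1, which are also on the slow fibre or Z-disc lists. The lower members were developmental contractile genes, the fusion gene Tmem8c and the acetylcholine receptor subunit Chrna1. Tmem8c, which encodes the fusion protein myomaker, was at 8.99 and 7.97 FPKM in dy2J and at 23.6, 41.9 and 46.1 in mdx, with 0.463 ± 0.163 in WT (-1.96 ± 0.25, limma adjusted p = 0.00324). Myh8, the perinatal myosin heavy chain, was at 6.42 and 5.78 FPKM against 21.8, 22.8 and 22.8, with 1.28 ± 0.169 in WT (-1.73 ± 0.11, limma adjusted p = 7.6e-05). Myl4, the embryonic myosin light chain, was at 47.3 and 45.5 FPKM against 147, 156 and 163, with 3.61 ± 0.940 in WT (-1.72 ± 0.16, limma adjusted p = 0.000671). Tnnt2, the cardiac troponin T that is also made in immature muscle, was at 8.46 and 6.60 FPKM against 21.1, 36.4 and 29.2 (-1.78 ± 0.21, limma adjusted p = 0.00226). In these genes dy2J lay between WT and mdx, and the 4 calls held in all alternatives. Myh3, the embryonic heavy chain, was at 12.7 and 7.86 FPKM against 15.6, 45.7 and 32.0 and just missed the threshold (-1.42 ± 0.37, limma adjusted p = 0.0508). Chrng, the fetal receptor subunit, did so too (-1.73 ± 0.44, limma adjusted p = 0.0539). Without mdx 1, whose level was the lowest of the mdx pools for Myh3, Chrng and Tmem8c, 10 members were lower.

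Regulators of satellite cells and myogenesis gave 9 of 27 lower (33.3%) and 0 higher, with a median of -0.31. The count was 2 without dy2J 1 and 4 without dy2J 2. Pax7, the transcription factor that defines satellite cells, was at 0.260 and 0.268 FPKM in dy2J and at 1.08, 1.02 and 1.13 in mdx, with 0.638 ± 0.0933 in WT. The WT pools lay between the mutants, and all pools were near or below 1 FPKM, where few reads stand behind a value. The difference of -0.71 ± 0.13 passed (limma adjusted p = 0.0132) but not when either dy2J library was left out (limma adjusted p up to 0.105). Pax3, the related factor, was under the minimum level and not tested, at 0.138 and 0.0863 FPKM in dy2J and 0.267, 0.414 and 0.303 in mdx. Myf5, which marks committed satellite cells, was at 0.689 and 0.729 FPKM against 2.19, 2.10 and 1.95. Myod1, the factor of myoblast commitment, was at 12.1 and 10.6 FPKM against 36.4, 26.4 and 21, with 8.04 ± 0.866 in WT (-1.19 ± 0.20, limma adjusted p = 0.0107). Myog, the factor of differentiation, differed less, at 15.4 and 14.2 FPKM against 19, 25.4 and 26.6 (-0.63 ± 0.16, limma adjusted p = 0.0455). Mamstr, a coactivator of MEF2 proteins, was at 12.4 and 13.2 FPKM against 38.6, 42 and 57.9, with 26.4 ± 2.17 in WT (-1.75 ± 0.17, limma adjusted p = 0.000709), and held in all alternatives. Cxcr4 and Fgfr4, receptors of migrating and activated myogenic cells, were lower by 1.41 and 1.40 on the log2 scale. Without dy2J 1 the calls of Myf5, Myod1, Myog, Cxcr4 and Fgfr4 were lost, and without dy2J 2 those of Myod1, Myog and Cxcr4. Of 33 cell cycle genes 31 were below 0, with a median of -0.48, but only Rrm2 was called lower and Ccnd2 higher, and both calls were lost when either dy2J library was left out. Without mdx 1, 13 cell cycle genes were called lower, and 0 were when any other single library was left out.

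Some imprinted growth genes were lower, but the list as a whole was not. Of 18 tested members 4 were called lower and 1 higher (27.8% called, against 7.57% of all tested genes). The median was -0.12 against -0.08, with 11 members below 0 and 7 above. Igf2, the fetal insulin-like growth factor, was at 27.6 and 27.8 FPKM in dy2J and at 94.6, 104 and 135 in mdx, with 6.60 ± 1.05 in WT (-1.95 ± 0.17, limma adjusted p = 0.000416). Peg3, a zinc finger protein of muscle stem cells, was at 10.6 and 9.58 FPKM against 23.0, 28.8 and 26.9 (-1.30 ± 0.14, limma adjusted p = 0.00138). Cdkn1c, the cell cycle inhibitor p57, was at 9.37 and 7.71 FPKM against 18.7, 23.1 and 20.7 (-1.19 ± 0.14, limma adjusted p = 0.00264). These 3 calls held in all alternatives, and dy2J lay near WT for Peg3 and Cdkn1c but above it for Igf2. Zim1 was the other lower member of 18, and Sgce, which encodes epsilon-sarcoglycan, was higher (0.51, limma adjusted p = 0.0371), both lost when either dy2J library was left out.

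Creatine and polyamine genes gave 4 of 17 lower and 0 higher (23.5%), against 4.44% lower and 7.57% called among all tested genes. Gatm, the first enzyme of creatine synthesis, was at 5.61 and 5.90 FPKM in dy2J and at 17.2, 23.9 and 23.6 in mdx, with 3.33 ± 0.495 in WT (-1.73 ± 0.16, limma adjusted p = 0.000607). Gamt, the second enzyme, was at 19.5 and 16.9 FPKM against 41.0, 37.0 and 48.3, with 15.0 ± 1.86 in WT (-1.16 ± 0.15, limma adjusted p = 0.00312). Both enzymes were thus higher in mdx than in dy2J, with dy2J above every WT pool for Gatm and near WT for Gamt. Odc1 and Sat1, enzymes that make and acetylate polyamines, were lower by 0.75 and 0.65 on the log2 scale, and lost when either dy2J library was left out. Among p53 target and apoptosis genes 7 of 34 were lower and 0 higher (20.6%), led by Cdkn1c and by Cdkn2a, the senescence-associated locus of p16 and p19, at 0.636 and 0.710 FPKM against 3.51, 2.81 and 1.99. Of 25 genes of denervation and the neuromuscular junction 5 were lower and 0 higher, among them the acetylcholine receptor subunits Chrna1 (-1.16) and Chrnb1 (-0.85) and the acetylcholinesterase gene Ache (-0.81). Without dy2J 1 the p53 and junction lists had 1 and 0 lower members, without dy2J 2 they had 1 and 1, and without mdx 3 they had 5 and 1. The difference of Ache was -0.47 without dy2J 1.

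**Figure D4:**
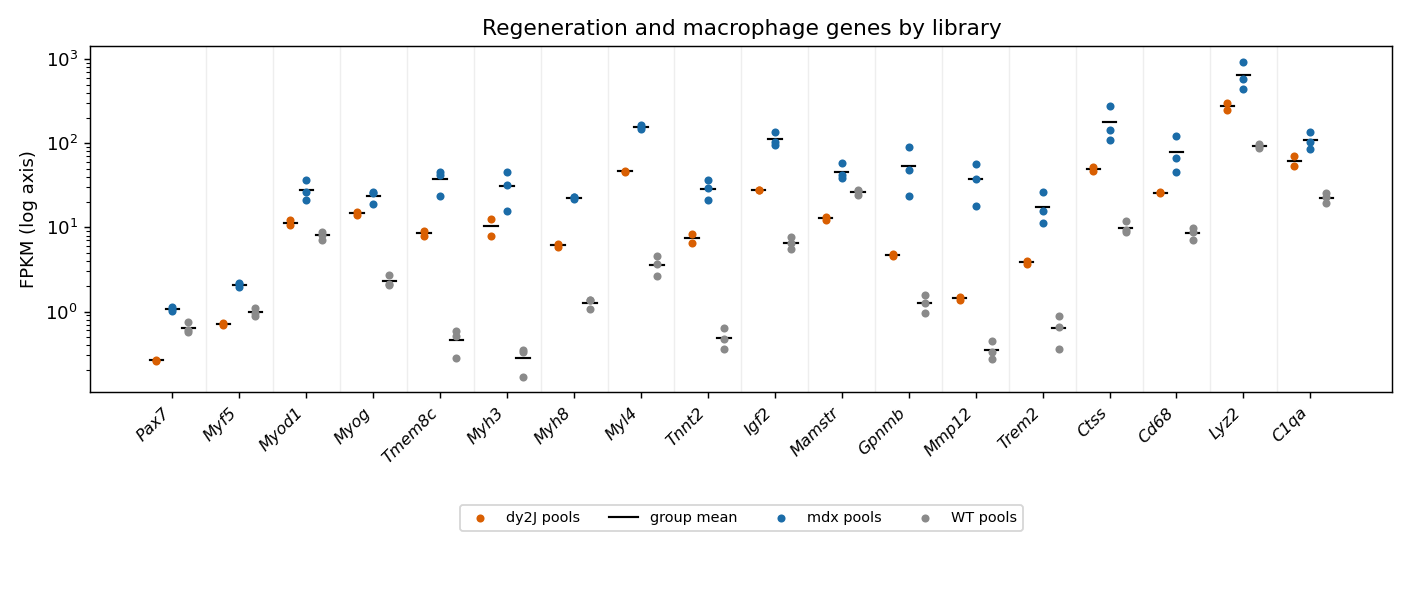
FPKM of satellite cell, regeneration and macrophage genes in each library on a log axis, with dy2J pools in orange, mdx pools in blue, WT pools in grey and a bar at each group mean. The dy2J pools lie between WT and mdx for Myl4 (47.3 and 45.5 FPKM against 147, 156 and 163 in mdx), Tmem8c and Gpnmb, and below both for Pax7 (0.260 and 0.268 FPKM) and Mamstr.

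Transcripts of the proteins that connect the fibre to its surroundings were mostly not called between the mutants, and protein was not measured. Of 21 genes of the dystrophin-glycoprotein complex and its partners 4 were higher, namely Dmd, Ank2, Nos1 and Sgce, and 1 was lower. The share called was 23.8%, against 7.57% of all tested genes, and the median was -0.15. Without dy2J 1 or dy2J 2 the higher count was 1. Nos1, the neuronal nitric oxide synthase that dystrophin holds at the membrane, was at 7.61 and 8.73 FPKM in dy2J and at 3.99, 3.69 and 5.97 in mdx, with 13.2 ± 1.49 in WT (0.74 ± 0.18, limma adjusted p = 0.0387). Sntb1, beta-1-syntrophin, was lower at 1.05 and 1.01 FPKM against 2.70, 3.27 and 4.14 (-1.09 ± 0.19, limma adjusted p = 0.0131). Utrn, the dystrophin relative utrophin, was at 4.11 and 3.75 FPKM against 2.57, 4.13 and 3.59, and Dag1, which encodes dystroglycan, at 53.2 and 57.8 against 55.1, 57.1 and 67.4. Neither was called, and the groups overlapped. Of 18 basement membrane genes Lama2 was the 1 called. Of 22 integrin and adhesion genes Itga7, the laminin receptor alpha-7 of muscle, was lower in dy2J at 19.3 and 22.4 FPKM against 27.8, 34.4 and 36.2, with 16.1 ± 0.0901 in WT (-0.62 ± 0.13, limma adjusted p = 0.0248), and Lims1 was higher. The calls of Nos1, Sntb1, Itga7 and Lims1 were lost when either dy2J library was left out (limma adjusted p up to 0.263).

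Matricellular and proteoglycan genes were higher in dy2J, with 7 of 31 called (22.6%), 0 lower and a median of 0.59. The main fibrillar collagens were not. Aspn, asporin, was at 130.2 and 70.0 FPKM in dy2J and at 28.5, 39.2 and 31.4 in mdx, with 25.3 ± 2.32 in WT (1.52 ± 0.24, limma adjusted p = 0.00845). Mfap4 and Mfap5, glycoproteins of elastic microfibrils, were higher by 1.11 and 0.97, and Eln, elastin itself, by 1.03. For Aspn, Mfap4 and Eln dy2J 1 was higher than dy2J 2, and the list had 0 called members without dy2J 1 and 10 without dy2J 2. Col1a1 was at 309 and 132 FPKM against 176, 226 and 207, and Col3a1 at 936 and 522 against 588, 740.1 and 789, so the dy2J pools fell on both sides of the mdx pools. Among 26 collagen and collagen processing genes 3 were higher (11.5%) and 0 lower, with a median of 0.35 and 21 members above 0. The higher ones were the prolyl hydroxylase gene Leprel1 (1.28), the lysyl hydroxylase gene Plod2 (1.11) and Col8a1 (0.86). The count was 5 after quantile normalization or median ratio rescaling, and 1 with no filter on low values or with only the dy2J and mdx libraries. Leprel1 held in every alternative in which it was tested, which leaves out the filter of a mean FPKM of at least 5. Plod2 was at 0.63 and not called without dy2J 1, and Col8a1 was lost when either dy2J library was left out. Cilp, a matrix protein of cartilage and heart that restrains TGF-beta, was at 106 and 85.8 FPKM against 32.9, 38.6 and 37.8, with 7.55 ± 1.69 in WT (1.37 ± 0.17, limma adjusted p = 0.00312), and held in all alternatives. It was the 1 of 14 tested tendon and cartilage genes that was called, and the summed FPKM of that list was 764 in dy2J 1 and 374 in dy2J 2. The part of differing tissue composition of the pools in these values was not tested.

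Genes of other cell types in the muscle moved little. Of 8 tested genes of Schwann cells and myelin 3 were higher and 0 lower, but the other 15 listed genes were under the minimum level, and 1 was called higher when either dy2J library was left out. Of 25 endothelial genes Vegfa and Angpt1, growth factors that act on vessels, were higher and 0 were lower. Vegfa was at 77.6 and 86.9 FPKM against 43.0, 38.7 and 43.3, with 83.2 ± 8.12 in WT, and Angpt1 at 5.74 and 5.24 against 2.09, 2.27 and 2.07, with 4.98 ± 0.493 in WT. For both, dy2J lay near WT and mdx was lower. The call of Vegfa held in all alternatives, and that of Angpt1 in every alternative in which it was tested. Among 21 genes of fibro-adipogenic progenitors, the mesenchymal cells of muscle, Pi16, Meox1 and Dpt were higher and Cxcl14 was lower, of which 0 were called higher without dy2J 1. Of 20 T and NK cell genes 2 reached the minimum level and 0 were called, and of 12 B and plasma cell genes 0 reached it. Cytosolic ribosomal protein genes gave 0 of 33 called by limma and a median of -0.18.

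**Figure D5:**
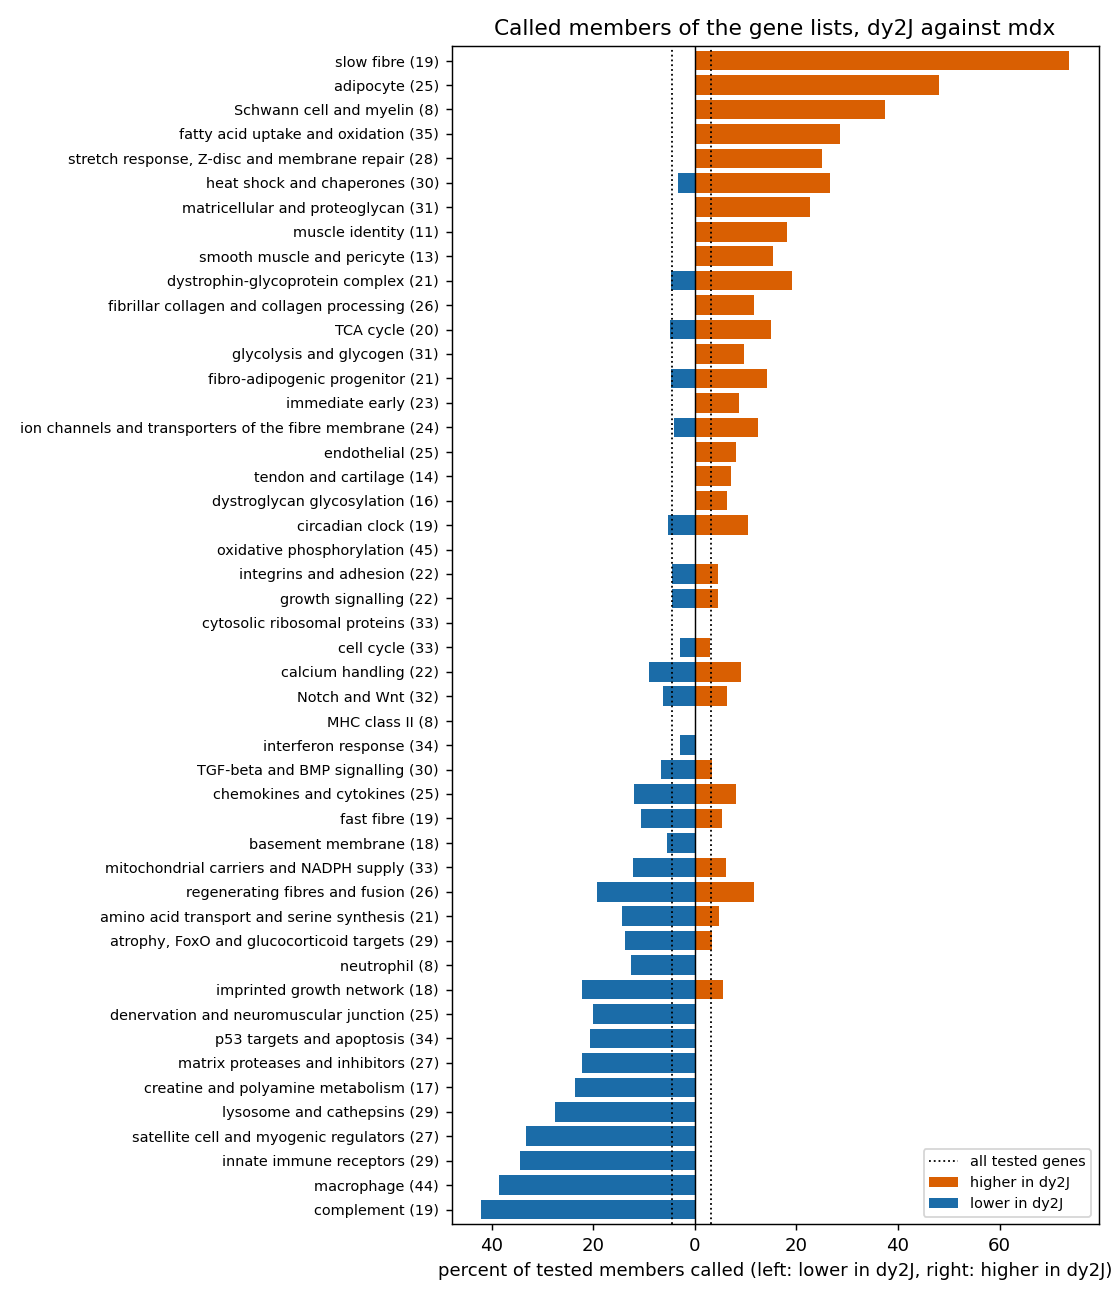
Share of the tested members of each gene list that was called higher in dy2J (orange, to the right) or lower (blue, to the left), in percent, with the number tested in brackets and dotted lines at the shares among all tested genes (3.13% higher, 4.44% lower). Slow fibre (73.7% of 19) and adipocyte (48.0% of 25) lists extend farthest to the right, and complement (42.1% of 19) and macrophage (38.6% of 44) lists farthest to the left.

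Smaller groups of signalling genes had called members in both directions. In each list drawn on here, the share called was above the 7.57% of all tested genes. It was 12.5% for Notch and Wnt genes, 17.2% for atrophy, FoxO and glucocorticoid targets and 15.8% for clock genes. Of 32 Notch and Wnt genes 2 were higher and 2 lower. The Wnt receptor genes Fzd9 and Fzd4 moved in opposite directions, Fzd9 at 13.9 and 13.4 FPKM in dy2J against 3.83, 2.55 and 4.21 in mdx (1.71, limma adjusted p = 0.00106) and Fzd4 at 10.1 and 10.7 against 22.7, 21.8 and 28.7 (-1.15, limma adjusted p = 0.00279). Of 29 atrophy, FoxO and glucocorticoid targets 1 was higher and 4 were lower. Fkbp5 and Sgk1, targets of glucocorticoid hormones, were lower, while Zbtb16, another such target, was higher. Fkbp5 was at 10.1 and 12.4 FPKM against 24.5, 28.9 and 37.1 (-1.33, limma adjusted p = 0.00815, lost without dy2J 1), and Zbtb16 at 17.8 and 19.7 against 6.79, 8.91 and 9.20 (1.10, limma adjusted p = 0.0219, lost when either dy2J library was left out). Among clock genes Nr1d1 was higher by 1.01 and Tef was lower by 0.63 on the log2 scale, and the hour of dissection is not given. Both calls were lost when either dy2J library or mdx 3 was left out, and that of Tef also without mdx 1 or any WT library. Of 21 genes of amino acid transport and serine synthesis 1 was higher and 3 were lower, and the lower count was 0 when either dy2J library was left out. Slc36a2, a transporter of glycine and proline, was higher at 9.32 and 7.91 FPKM against 1.70, 2.73 and 2.11, but not without dy2J 1. The lower members were the amino acid transporter genes Slc38a1 (-1.08) and Slc43a1 (-1.01) and Psat1 (-0.82), which encodes an enzyme of serine synthesis. Acvr2b and Gdf11, a receptor and a ligand of the activin and myostatin family, were lower by 0.71 and 0.72 on the log2 scale, calls that were lost without dy2J 2.

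Several of the largest differences belonged to no list. Pttg1, which encodes securin, an inhibitor of chromosome separation, was at 49.4 and 52 FPKM in dy2J and at 3.30, 7.43 and 4.92 in mdx, with 2.63 ± 0.288 in WT (3.11 ± 0.23, limma adjusted p = 0.000204). Gal, the neuropeptide galanin, was at 0.372 and 0.343 FPKM against 4.17, 17.3 and 8.44 (-2.83 ± 0.42, limma adjusted p = 0.00661). Mdfi, an inhibitor of MyoD family proteins, was at 2.35 and 1.37 FPKM against 14.5, 8.66 and 12.8 (-2.18 ± 0.21, limma adjusted p = 0.000943). Pttg1 and Mdfi held in all alternatives, whereas Gal was lost when either dy2J library was left out (limma adjusted p up to 0.0649). R3hdml and Odf3l2 were lower by 2.21 and 2.06 on the log2 scale and were lost in the same way. Bdh1, the mitochondrial enzyme of ketone body oxidation, which was singled out after its values were seen, was at 16.8 and 17.1 FPKM against 2.09, 1.33 and 2.06, with 11.8 ± 2.51 in WT (2.68 ± 0.18, limma adjusted p = 9.37e-05).

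Calls were spread over the genome. The share of tested genes called ran from 4.69% on chromosome 16 to 9.42% on chromosome 19 over the autosomes and chromosome X, where 7.49% were called. Around the mutated genes, 8 of 57 tested genes within 10 Mb of Lama2 were called (14.0%) and 2 of 33 within 10 Mb of Dmd (6.06%). The genes near Lama2 were Sgk1, Map3k5, Eya4, Arhgap18, Txlnb, Cited2, Fam26e and the pseudogene Hmgb1-ps8, and they went in both directions, from -1.23 for Sgk1 to 0.96 for Map3k5. Those near Dmd were Pls3 (0.50) and Mpp1 (-0.87). The genes of these windows were listed after their values were seen.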

How the data were processed

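Per the file headers, the table that the authors deposited holds 43628 genes and gives each library's FPKM. Cufflinks 2.2.1, with Cuffnorm and Cuffdiff, is named in the submitters' processing notes, as are TopHat2 2.0.13, the build GRCm38, Trim Galore 0.3.7 and bcl2fastq 2.15.0.4. Their settings, strandedness and the scaling between libraries are not given in the sources used here. FPKM carries no read count, so depth and counting error are unknown, and low values are the least certain. Names missing from the table (8987) were taken from GENCODE M21 for 8673 entries.

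The minimum level was 1 FPKM in 2 or more of the 5 dy2J and mdx libraries, which 12595 genes reached. An exact 0 was taken, for any gene that reached 10 FPKM in 2 or more libraries, as a failed estimate, which left out 14 genes, among them Myh4, mt-Co1, mt-Atp6 and mt-Atp8. Such values in WT were set to missing. The remaining 12581 genes were fitted with limma 3.58.1 (R 4.3.3) on the scale of log2(FPKM + 1), over all 8 libraries with a term per genotype and a mean-variance trend (5 residual degrees of freedom). The contrast of dy2J minus mdx was tested two-sided with Benjamini-Hochberg adjustment over all tested genes at a threshold of 0.05. The pseudocount of 1 understates differences of low genes. An exact permutation test of 2 against 3 libraries cannot go below p = 0.1. The script was tested on simulated data.

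The 52 gene lists (1227 symbols, 1094 tested) and the comparison itself were chosen with earlier results of these data known. Named genes were Dmd, Lama2, Nnt, Pax7, Pax3 and Mamstr, the 10 largest higher and 10 largest lower called genes, and the 3 largest called members of each list with at least 3, some of which are not reported here; other members are given with their values, chosen after these were seen. Lists are described by counts and medians, with no set test. Alternatives were other pseudocounts, filters and scalings, only the 5 libraries, no trend, other treatments of 0, a replicate block and leaving out each library. Tables and figures used matplotlib 3.10.9, pandas 2.3.3 and numpy 2.4.6 under Python 3.11.15.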

Additional observations from a re-analysis of the deposited data

How the results depend on the processing

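Against 953 calls (394 higher in dy2J, 559 lower), the count was 529 with no filter on low values (246 lower), 613 with a mean FPKM of at least 5 (336 lower) and 470 when only the dy2J and mdx libraries were fitted (237 higher, 233 lower). Quantile normalization gave 722 higher and median ratio rescaling 618 higher, with the median of all genes moved by 0.076 on the log2 scale. Leaving out 1 library gave 140 to 1333 calls, 77 to 373 higher and 63 to 960 lower, lowest without dy2J 1 for each. Of the 140 calls without dy2J 1, 135 were among the 953, and of the 221 without dy2J 2, 190 were. When 1 dy2J library is left out, the lone pool is assumed to vary like the other groups. With the replicate number as a block the count was 615 (338 lower). Same-numbered dy2J and mdx libraries had correlations of -0.108 and -0.163 of their deviations from the group means. The deviations of the 2 dy2J libraries mirror each other, so these values cannot decide whether a number marks shared handling. Same-numbered WT and mdx libraries had 0.093, 0.149 and 0.041, and differently numbered ones -0.185 to 0.112. Same-numbered WT and dy2J libraries had -0.045 and 0.056. The labels give no pairing, so the block is not read as a paired analysis. Pseudocounts of 0.1 and 0.5, no mean-variance trend and both other treatments of unreliable zeros gave 845 to 948 calls. With a pseudocount of 0.1, low genes had larger differences, such as -1.69 for Pax7 and 6.44 for Ucp1. The 209 genes followed through the alternatives were called list members and tested named genes, among them Nnt, which was not called. Of these, 95 no longer passed with no filter on low values, 72 with only the dy2J and mdx libraries and 51 with the replicate block. Without mdx 1, mdx 2 and mdx 3 the numbers were 24, 29 and 55. Leaving out either dy2J library lost more of the 209 than any other alternative. None changed sign. With a mean FPKM of at least 5, no member of the T and NK cell list remained, so its median has no value there. Depth is unknown, so no limit from counting error can be given.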
